A study of Mus musculus with 6 samples.

Results

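Plasma cell and IgA secretion genes were examined in the lungs of WT and ISM1-/- mice. The set was chosen by gene symbol and holds 10 of the 54532 genes in the count table, namely Jchain, Mzb1, Xbp1, Prdm1, Irf4, Sdc1, Tnfrsf17, Derl3, Pou2af1 and Pigr. Of these, 9 were among the 18689 genes that reached 0.5 CPM (counts scaled to library size) in at least 1 library, and Tnfrsf17 was below this limit in every library. RNA came from whole lungs, perfused to clear blood, of 3 WT and 3 ISM1-/- mice, all untreated and at 2 months of age, with 1 library per mouse. WT mice were C57BL/6J animals from a supplier and ISM1-/- mice were bred in-house on C57BL/6J, so the genotype of a mouse cannot be told apart from its origin.

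Plasma cells are the antibody-secreting end stage of the B cell lineage. IRF4 and PRDM1 (Blimp-1) switch off the B cell program, and XBP1 enlarges the secretory apparatus that folds and exports immunoglobulin. In mucosal tissue such as the airway, plasma cells make IgA whose dimers are held together by the joining chain, and the polymeric immunoglobulin receptor on epithelial cells carries these dimers into the airway lumen.

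Total counts ranged from 37606133 to 42345042 per library. Reads of Ism1, the targeted gene, numbered 2975 to 3215 in WT and 2508 to 2953 in the libraries that carry the ISM1-/- label. This difference (log2 fold change -0.19, SE 0.0709) did not pass edgeR's quasi-likelihood test (adjusted p = 0.217). Assignment to a genotype was therefore by label alone, and ISM1-/- below means the libraries so labelled. Counts on all immunoglobulin genes together were 0.0254% to 0.0287% of each WT library and 0.0426% to 0.0662% of each ISM1-/- library. Summed CPM of 10 adipocyte markers was 254 to 329 in WT and 52.9 to 147 in ISM1-/-, and that of 10 cardiomyocyte markers was 1661 in WT replicate 1, 548 and 652 in WT replicates 2 and 3, and 301 to 580 in ISM1-/-. The part of these tissue differences in the results was not tested.

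Jchain, which encodes the joining chain of polymeric IgA and IgM, was the only gene of the set that passed the test for differential expression. Its mRNA was about 4 times as abundant in ISM1-/- lungs as in WT lungs, while the transcription factors, the surface markers, the endoplasmic reticulum (ER) genes and the epithelial IgA receptor of the set did not pass. To be called, a gene had to change 2-fold or more with a p under 0.1 from edgeR, adjusted by Benjamini-Hochberg over all genes tested. By this rule 1 gene of the set was called higher and 0 lower, and the other 8 tested genes were not called. Of all genes tested 0.567% were called, 0.284% in each direction, and 4.72% had an adjusted p under 0.1 at any fold. DESeq2 and limma also called 1 of them, and at an unadjusted p under 0.05 the number was 2, Jchain and Mzb1, both higher, where 15.8% of all genes tested passed, 6.48% higher and 9.3% lower. The genotypes did not overlap in 2 of the 9 tested genes, Jchain and Xbp1, both higher in ISM1-/-, where 21.6% of all genes tested had no overlap and 9.33% had none with ISM1-/- higher. The median log2 fold change of the 9 genes was 0.13, and that of all genes tested was 0.00.

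**Figure D1:**
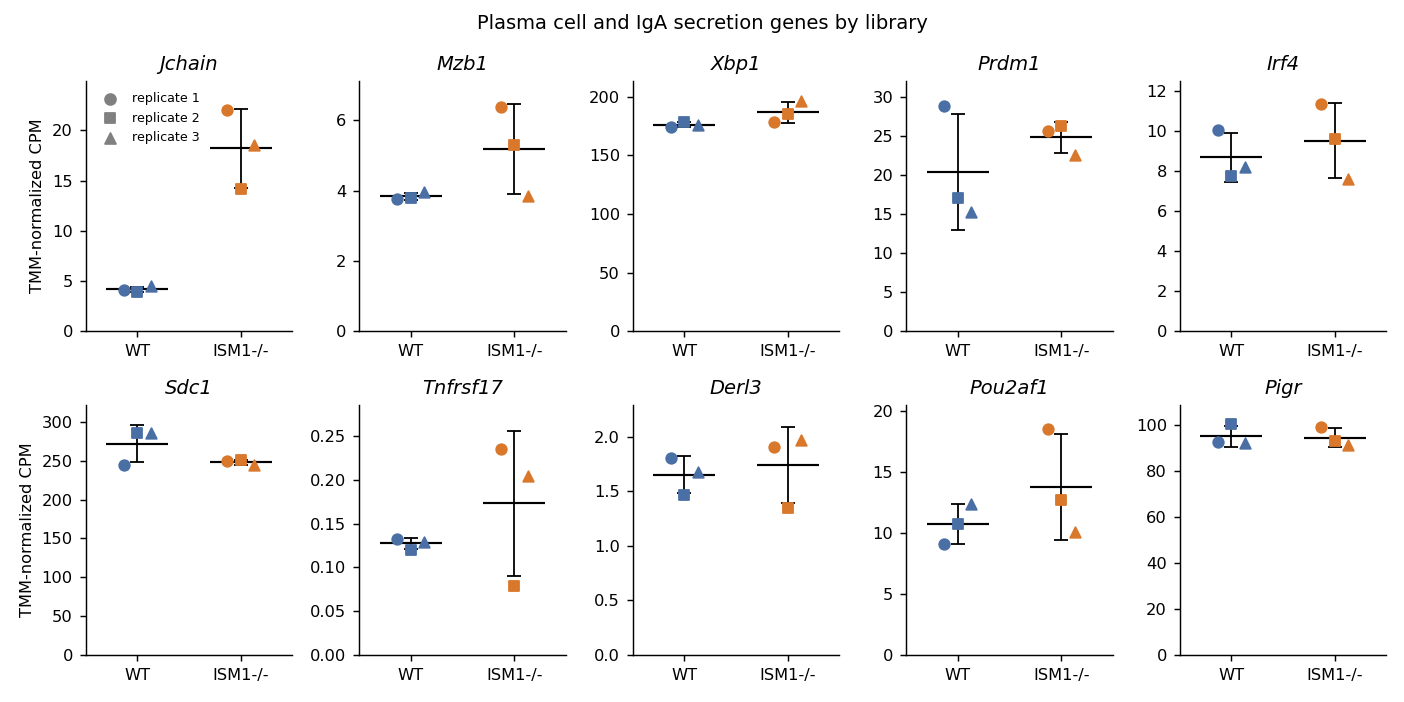
TMM-normalized CPM (vertical axis, from 0, scaled for each gene) of the 10 genes in 3 WT libraries (blue) and 3 ISM1-/- libraries (orange), with the mean as a line and the SD as bars. The ISM1-/- libraries sit at 14.1 to 22.0 CPM of Jchain against 3.95 to 4.47 CPM in WT, while for Pigr both genotypes lie between 91.4 and 100.4 CPM.

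Jchain (ENSMUSG00000067149, GRCm38, chromosome 5, 88519809 to 88527891, reverse strand) had 155, 164 and 173 reads in WT and 935, 536 and 724 reads in ISM1-/-. On the TMM-normalized scale the WT libraries held 4.11, 3.95 and 4.47 CPM and the ISM1-/- libraries 22.0, 14.1 and 18.6 CPM. Every ISM1-/- library was thus above every WT library, and the lowest ISM1-/- value came from replicate 2. The means were 4.18 ± 0.268 CPM in WT and 18.2 ± 3.94 CPM in ISM1-/- (SD, n = 3 each), a 4.36-fold difference with a 95% interval of 3.41 to 5.58. Its log2 fold change was 2.13 (SE 0.159, edgeR adjusted p = 0.00114), and by p-value it ranked 2 of 18689 genes. Leaving out any 1 library gave log2 fold changes from 1.97 to 2.28, and Jchain was called in 6 of 6 such fits. In bulk lung RNA, more cells that express a gene and more RNA per cell cannot be told apart.

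Mzb1 encodes an ER protein of B cells and plasma cells that assists antibody assembly. It measured 3.77, 3.81 and 3.96 CPM in WT and 6.40, 5.30 and 3.84 CPM in ISM1-/-. Replicates 1 and 2 of ISM1-/- were above all WT libraries and replicate 3 lay within the WT range. The log2 fold change was 0.43 (SE 0.181, edgeR adjusted p = 0.277), with a 95% interval of the fold from 1.02 to 1.79, so the interval of Mzb1 ended well below that of Jchain. Without ISM1-/- replicate 3 the log2 fold change was 0.61 and the adjusted p from edgeR was 0.0457. Derl3, which helps to move misfolded proteins out of the ER, had 68, 61 and 65 counts in WT and 81, 51 and 77 in ISM1-/-, with overlap between genotypes and a log2 fold change of 0.08 (adjusted p = 0.907).

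The 4 transcriptional regulators of the set did not pass the test. Xbp1, the transcription factor of the secretory program, was at 174, 178 and 176 CPM in WT and at 179, 185 and 196 CPM in ISM1-/-. The genotypes did not overlap, but the difference was small (log2 fold change 0.08, SE 0.0563, edgeR adjusted p = 0.522; 95% interval of the fold 0.972 to 1.16). Prdm1, which represses the B cell program, was at 28.8, 17.0 and 15.3 CPM in WT and at 25.5, 26.3 and 22.6 CPM in ISM1-/-. WT replicate 1 was above all ISM1-/- libraries and the other WT libraries were below them. The log2 fold change of Prdm1 was 0.29 (edgeR adjusted p = 0.544) with all libraries and 0.62 (adjusted p = 0.0271) without WT replicate 1, which was also the library with the high cardiomyocyte sum. Irf4, needed for plasma cell formation and also used by T cells and macrophages, was at 10.1, 7.73 and 8.20 CPM in WT and at 11.3, 9.57 and 7.59 CPM in ISM1-/-. The genotypes overlapped (log2 fold change 0.13, edgeR adjusted p = 0.751). Pou2af1, the B cell coactivator OBF-1, was at 9.07, 10.7 and 12.4 CPM in WT and at 18.6, 12.7 and 10.1 CPM in ISM1-/-. Only replicates 1 and 2 of ISM1-/- were above the highest WT library, and the log2 fold change was 0.36 (SE 0.202, edgeR adjusted p = 0.433). Pou2af1 overlaps in position with Gm47828, which held at most 10 counts in a library, and no other gene of the set overlapped another annotated gene.

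Surface proteins of plasma cells were also without a call. Sdc1, syndecan-1 (CD138), is the usual marker of plasma cells but is made by epithelial cells too. It measured 245, 285 and 286 CPM in WT and 250, 251 and 245 CPM in ISM1-/-, with a log2 fold change of -0.13 (SE 0.0688, edgeR adjusted p = 0.390). The spread was wide in WT and narrow in ISM1-/-, and the genotypes overlapped. Tnfrsf17, which encodes the survival receptor BCMA, had 5, 5 and 5 counts in WT and 10, 3 and 8 in ISM1-/-. It was below the filter and entered only the fit without a filter, where no difference was detectable at this depth (log2 fold change 0.44, edgeR adjusted p = 0.824).

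Pigr, the polymeric immunoglobulin receptor of epithelial cells, is the receptor through which joining-chain-containing IgA is exported. It was at 92.8, 100.4 and 92.4 CPM in WT and at 99.2, 93.4 and 91.4 CPM in ISM1-/-. The genotypes overlapped, with means of 95.2 ± 4.50 and 94.7 ± 4.10 CPM (SD, n = 3 each). The log2 fold change was -0.01 (edgeR adjusted p = 0.972), and the 95% interval of the fold ran from 0.904 to 1.09. A difference of the size seen for Jchain thus lay far outside the interval of Pigr. Over the 8 tested genes that were not called, the highest upper bound of the fold was 1.79, that of Mzb1.

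**Figure D2:**
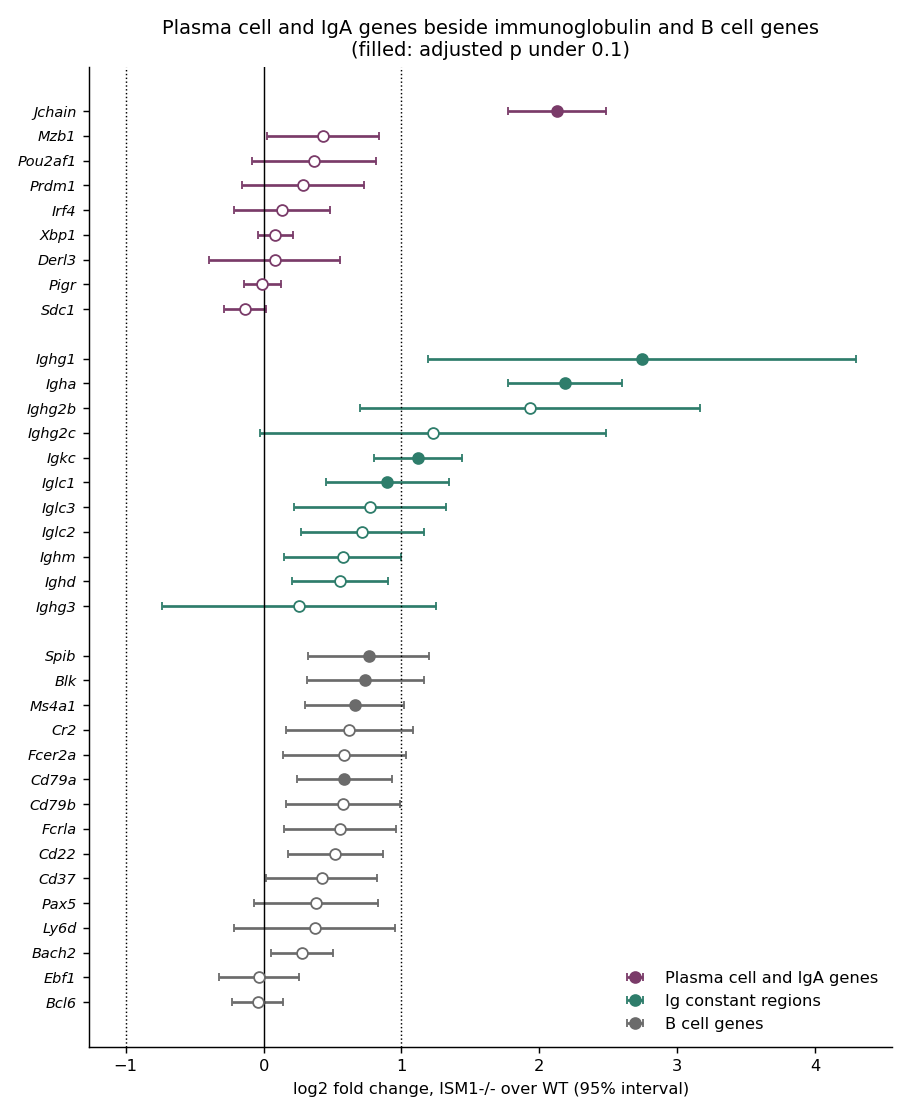
Log2 fold change of ISM1-/- over WT (horizontal axis) with its 95% interval from edgeR for 9 genes of the set (purple), 11 immunoglobulin constant region genes (green) and B cell genes (grey), filled where the adjusted p was under 0.1. Jchain at 2.13 lies beside Igha at 2.19, and the other genes of the set lie between -0.13 and 0.43; dotted lines mark a 2-fold change.

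Levels of different genes were compared on the deposited FPKM scale, which takes gene length into account. In WT lungs the order was Sdc1 (187 FPKM), Xbp1 (138), Pigr (53.2), Prdm1 (6.45), Pou2af1 (5.51), Mzb1 (4.25), Irf4 (2.63), Jchain (2.24), Derl3 (2.15) and Tnfrsf17 (0.157). The libraries of neighbours overlapped for Prdm1 and Pou2af1, for Irf4 and Jchain, and for Jchain and Derl3. In ISM1-/- lungs Jchain rose from place 8 to place 4, with a mean of 9.73 ± 2.13 FPKM (SD, n = 3) against 2.24 ± 0.146 FPKM in WT. The libraries of Jchain, Prdm1 (7.82 FPKM), Pou2af1 (7.06 FPKM) and Mzb1 (5.71 FPKM) overlapped pairwise along this order in ISM1-/-, as did those of Irf4 and Derl3. The 3 most abundant genes, Sdc1, Xbp1 and Pigr, are those that lung epithelium also makes, and they kept their places in both genotypes.

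**Figure D3:**
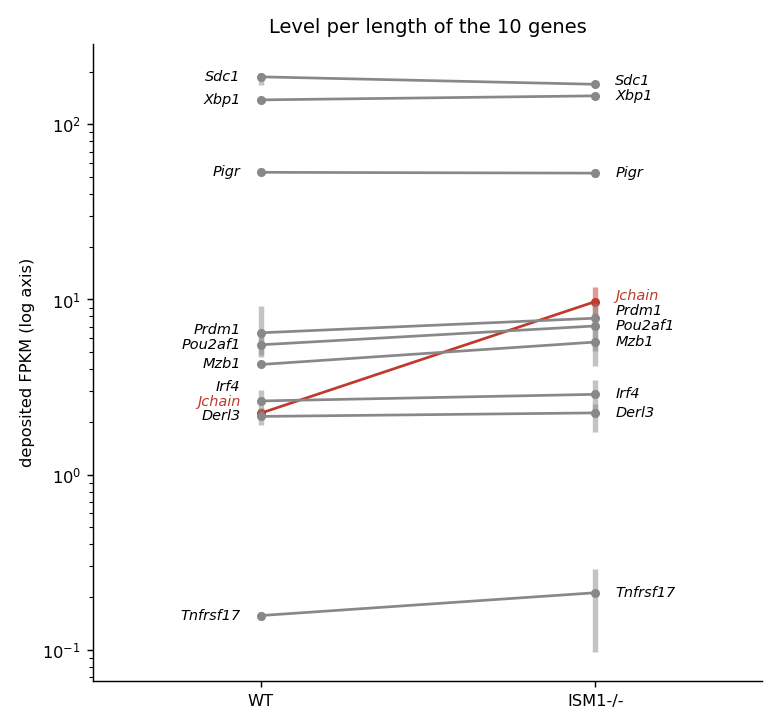
Mean FPKM (log axis) of the 10 genes in WT and ISM1-/- lungs, joined by lines, with vertical bars from the lowest to the highest of the 3 libraries. Jchain (red) goes from place 8 at 2.24 FPKM to place 4 at 9.73 FPKM, and the other lines are close to level.

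The sequences just before the transcription start are shown for Jchain, because it is the gene that was called, and for the 2 genes of the set in which a searched motif was found. They are RefSeq sequences of GRCm38.p6, 250 bases each, 5′ to 3′ on the strand of the gene, and cover chr5:88527898-88528147 (reverse strand) for Jchain, chr9:51213440-51213689 (forward strand) for Pou2af1 and chr16:11313559-11313808 (forward strand) for Tnfrsf17. Capitals mark the motif.
Jchain: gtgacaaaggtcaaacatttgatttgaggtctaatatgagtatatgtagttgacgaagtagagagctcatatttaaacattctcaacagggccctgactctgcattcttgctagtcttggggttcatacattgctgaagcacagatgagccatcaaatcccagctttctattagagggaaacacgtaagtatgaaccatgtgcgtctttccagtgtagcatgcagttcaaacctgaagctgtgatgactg
Pou2af1: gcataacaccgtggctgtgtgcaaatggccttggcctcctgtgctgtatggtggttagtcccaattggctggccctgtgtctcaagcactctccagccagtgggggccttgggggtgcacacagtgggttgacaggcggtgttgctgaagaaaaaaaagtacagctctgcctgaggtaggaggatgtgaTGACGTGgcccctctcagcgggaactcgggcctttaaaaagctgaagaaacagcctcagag
Tnfrsf17: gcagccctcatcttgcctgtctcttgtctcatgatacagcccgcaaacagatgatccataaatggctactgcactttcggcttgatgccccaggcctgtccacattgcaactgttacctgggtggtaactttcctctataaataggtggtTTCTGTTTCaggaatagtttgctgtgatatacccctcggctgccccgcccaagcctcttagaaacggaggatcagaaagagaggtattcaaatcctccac

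Searched on both strands were the octamer ATGCAAAT, bound by the POU factors that OBF-1 assists, the XBP1 core TGACGTG, and the repeat GAAANNGAA of interferon regulatory factors such as IRF4. No motif contains another. The Pou2af1 window held the XBP1 core with its first base 61 bases before the start, on the strand of the gene. The Tnfrsf17 window held the repeat with its first base 100 bases before the start, on the opposite strand, so that its capitals read as the reverse complement. Of the 9 genes of the set with a window, 2 held any of the motifs, and Jchain held none of them. Among 32851 windows of the same length, the octamer was in 1.60%, the XBP1 core in 1.65% and the repeat in 7.13%. A match is a description of these letters only.

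Immunoglobulin constant region genes encode the heavy and light chains of antibodies of all classes, of which polymeric IgA and IgM hold the joining chain. Of 11 tested, 4 passed an adjusted p under 0.1 in edgeR, all higher in ISM1-/-, where 1.38% of all genes tested passed in this direction, and their median log2 fold change was 0.90. Igha, the heavy chain of IgA, was at 11.0, 14.3 and 17.2 CPM in WT and at 68.5, 48.8 and 76.3 CPM in ISM1-/-. Every ISM1-/- library was above every WT library (log2 fold change 2.19, SE 0.185, edgeR adjusted p = 0.00193). Igkc, the kappa light chain, rose from 46.0 ± 4.48 to 100.2 ± 23.3 CPM (SD, n = 3 each; log2 fold change 1.12, edgeR adjusted p = 0.0104). Iglc1, a lambda light chain, had a log2 fold change of 0.90 (adjusted p = 0.0488), and its reads may be shared with near-identical lambda genes. Ighg1, the heavy chain of IgG1, had 1, 1 and 9 counts in WT and 43, 15 and 20 in ISM1-/- (log2 fold change 2.74, adjusted p = 0.0766). Its WT libraries were all under 0.5 CPM, so it entered the test only through ISM1-/- libraries. With a filter of 0.5 CPM in at least 3 libraries, 3 constant region genes passed. Ighm, the heavy chain of IgM and the most abundant of the list, was at 102 ± 7.39 CPM in WT and at 151 ± 49.2 CPM in ISM1-/- (SD, n = 3 each) and did not pass (log2 fold change 0.57, edgeR adjusted p = 0.166). The number that passed was 2 without ISM1-/- replicate 1, ISM1-/- replicate 2 or WT replicate 2, and 10 without ISM1-/- replicate 3.

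Whether Jchain and another gene changed by the same factor was asked with the log2 ratio of their CPM in each library. Jchain reads were 0.375, 0.276 and 0.261 times the Igha reads in WT and 0.321, 0.290 and 0.243 times in ISM1-/-. The ratio of Jchain to Igha thus overlapped between genotypes, with a log2 difference of -0.08 (two-sided exact permutation test, p = 0.7, 0.7 after adjustment over 6 ratios). With so few libraries, this test cannot show that both genes changed by the same factor. Against the kappa chain the picture differed, since Jchain reads were 0.0910, 0.0941 and 0.0880 times the Igkc reads in WT and 0.173, 0.159 and 0.219 times in ISM1-/-. Against Ighm the ratio was 0.0378 to 0.0436 in WT and 0.0934 to 0.182 in ISM1-/-. Every ISM1-/- library exceeded every WT library in both ratios, with log2 differences of 1.0 for Igkc and 1.58 for Ighm.

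Jchain reads were more frequent relative to lineage genes in every ISM1-/- library. For Igkc, Ighm, Mzb1 and Cd79a alike, this separation was set by Jchain itself. Jchain was at most 4.47 CPM in WT and at least 14.1 CPM in ISM1-/-. This factor was larger than that between any WT and any ISM1-/- library for those genes. The separation is thus no support beyond the Jchain difference, and the log2 differences give how much less those genes changed. The ratio of Jchain to Mzb1 was 1.09, 1.04 and 1.13 in WT and 3.44, 2.67 and 4.83 in ISM1-/-, a log2 difference of 1.70. The ratio of Jchain to Cd79a, a chain of the B cell receptor complex, was 0.186 to 0.196 in WT and 0.414 to 0.773 in ISM1-/-, a log2 difference of 1.55. In both ratios the highest value was in ISM1-/- replicate 3, the library in which Mzb1 was at its WT level. The ratio of Pigr to Epcam, a general epithelial gene, was 1.40, 1.49 and 1.34 in WT and 1.60, 1.51 and 1.61 in ISM1-/-, a log2 difference of 0.16. Epcam itself was at 67.5 ± 1.53 CPM in WT and 60.2 ± 2.90 CPM in ISM1-/- (SD, n = 3 each; log2 fold change -0.16, edgeR adjusted p = 0.215). Each of the 5 ratios other than Jchain to Igha was higher in every ISM1-/- library, with a two-sided exact permutation p of 0.1, the smallest that 3 libraries against 3 allow, and 0.12 after adjustment over the 6 ratios.

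**Figure D4:**
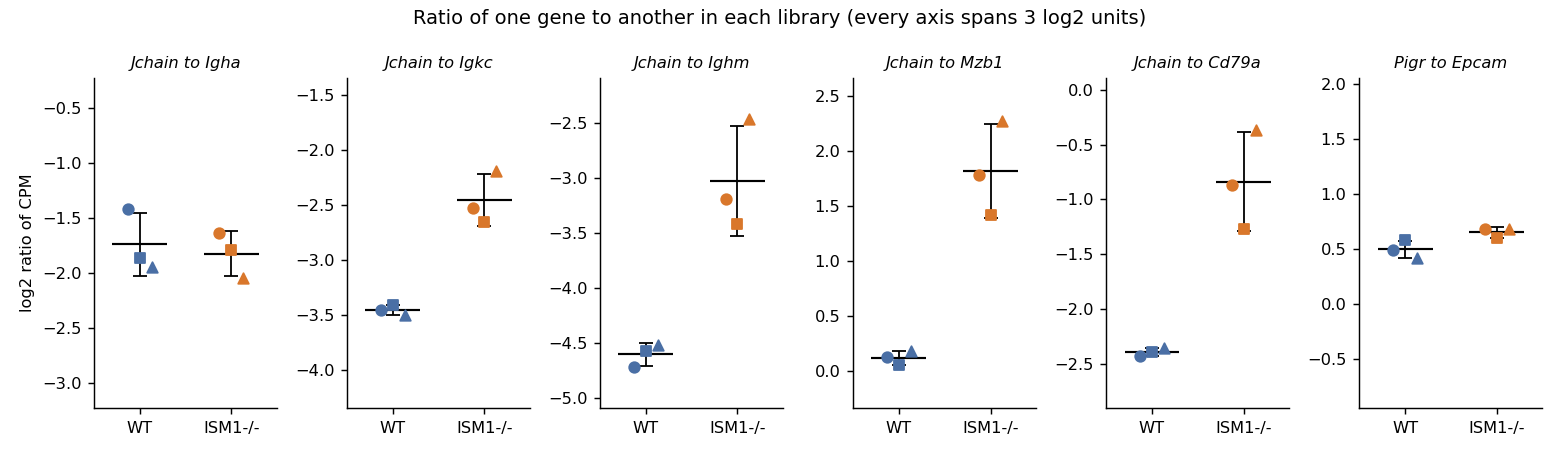
Log2 ratio of CPM of one gene to another (vertical axis, each panel spanning the same width) in 3 WT (blue) and 3 ISM1-/- libraries (orange), with the mean as a line and the SD as bars. Jchain to Igha overlaps between genotypes (log2 difference -0.08), while the ratios of Jchain to Igkc, Ighm, Mzb1 and Cd79a are higher in every ISM1-/- library (1.0 to 1.70).

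Genes whose profile over the 6 libraries was most like that of Jchain were found by the root mean square (RMS) difference of log2 CPM centred on each gene's mean, among the 15874 genes whose mean reached 1 CPM. Igha was the nearest, with an RMS difference of 0.206. Col6a4, a collagen VI chain, followed at 0.266, and then Igkv6-23 at 0.318, S100a8 at 0.404 and Igkv6-15 at 0.426. Igkv6-23 and Igkv6-15 are kappa variable segments that may share reads with similar segments, and S100a8 is a calcium-binding protein of neutrophils. Within the set, Mzb1 ranked 504, Pou2af1 760 and Prdm1 1141, and Sdc1 was farthest at 12212. These ranks describe 6 libraries, which also carry the difference in Jchain between genotypes.

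None of the other plasma cell genes was called at 2-fold. In a list of 20 further genes of the secretory and plasma cell program, 0 passed an adjusted p under 0.1 in edgeR as higher and 1 as lower, beside 1.38% and 3.34% of all genes tested. At an unadjusted p under 0.05, 1 was higher and 1 lower, beside 6.48% and 9.3% of all genes tested. DESeq2 and limma gave the same numbers of 0 and 1 at an adjusted p under 0.1. The median log2 fold change of the 20 genes was 0.00. The gene that passed was Tent5c, which stabilises immunoglobulin mRNA in plasma cells but is not restricted to them. It was at 49.4, 60.9 and 62.5 CPM in WT and at 44.8, 39.7 and 43.5 CPM in ISM1-/-, lower in every ISM1-/- library (log2 fold change -0.43, SE 0.0941, adjusted p = 0.0472), and it did not pass without ISM1-/- replicate 1 or 2 or WT replicate 2 or 3. The most abundant genes of the list were the ER proteins Sel1l (log2 fold change 0.00, adjusted p = 0.983) and Txndc5 (-0.06, adjusted p = 0.710).

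Unfolded protein response and ER chaperone genes, among them targets of XBP1, gave 0 of 26 past an adjusted p under 0.1 in edgeR, in DESeq2 or in limma, with 3 higher and 0 lower at an unadjusted p under 0.05. At this unadjusted p, 6.48% of all genes tested were higher and 9.3% lower. The median log2 fold change of the 26 genes was 0.09. Hsp90b1, the ER form of HSP90, was at 487 ± 13.7 CPM in WT and 565 ± 99.7 CPM in ISM1-/- (SD, n = 3 each; log2 fold change 0.21, edgeR adjusted p = 0.369), and Calr, the chaperone calreticulin, had a log2 fold change of 0.16 (adjusted p = 0.312). Of the 26 genes, 12, 12 and 19 were above the highest WT library in ISM1-/- replicates 1, 2 and 3, where 30.5%, 27.8% and 32.5% of all genes tested were. In 8 of the 26 every ISM1-/- library was above every WT library, beside 9.33% of all genes tested.

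B cell identity genes were measured as the lineage from which plasma cells arise. Of 16, 5 passed an adjusted p under 0.1 as higher in edgeR and 0 as lower, beside 1.38% and 3.34% of all genes tested. The median log2 fold change of the 16 genes was 0.56. Among the 5 were Ms4a1, which encodes CD20 (0.66, adjusted p = 0.0663), Spib (0.76, adjusted p = 0.0803), Blk (0.74, adjusted p = 0.0817) and Cd79a (0.59, adjusted p = 0.0856), with log2 fold changes first. None reached 2-fold. By library, 14, 13 and 7 of the 16 genes were above the highest WT library in ISM1-/- replicates 1, 2 and 3, beside the 30.5%, 27.8% and 32.5% of all genes tested. The count rests on single libraries, since it was 12 without ISM1-/- replicate 3, 1 without WT replicate 1, and 0 without any of the other 4 libraries; limma also gave 0 and DESeq2 8. Cd37 (0.42, adjusted p = 0.294) and Bcl6 (-0.04, adjusted p = 0.872), the most abundant of the list, did not pass.

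**Figure D5:**
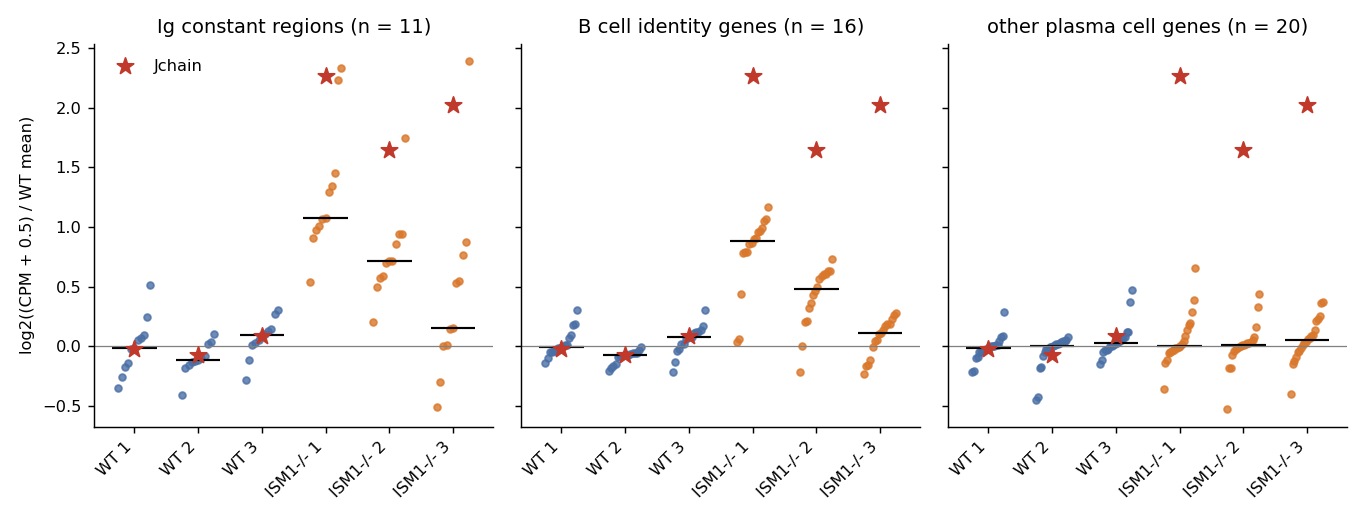
Log2 of (CPM + 0.5) over its WT mean (vertical axis) in each library for 11 immunoglobulin constant region genes, 16 B cell identity genes and 20 other plasma cell genes (points, with the median as a line), and for Jchain (red star). In ISM1-/- replicate 3 the medians are 0.15, 0.11 and 0.05 while Jchain stays high, and the other plasma cell genes are centred near 0 in every library.

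Ligands and receptors for survival, homing and class switching of plasma cells were without a call at 2-fold. Of 22 such genes 16 were tested. In edgeR 2 passed an adjusted p under 0.1 as higher and 0 as lower, beside 1.38% and 3.34% of all genes tested. The median log2 fold change of the 16 genes was 0.14. Tnfrsf13c, the BAFF receptor of B cells, had a log2 fold change of 0.70 (SE 0.177, adjusted p = 0.0751). Cxcl12, a stromal chemokine that retains plasma cells, rose from 290 ± 24.0 to 355 ± 25.1 CPM (SD, n = 3 each; log2 fold change 0.29, edgeR adjusted p = 0.0872). The count was 6 without ISM1-/- replicate 3, 1 without WT replicate 1 and 0 without any other single library. Tgfb1, a signal for switching to IgA, was at 88.5 ± 5.42 and 94.8 ± 18.6 CPM (SD, n = 3 each; edgeR adjusted p = 0.773). Ccl28 and its receptor Ccr10, which guide IgA plasma cells to mucosa, were singled out after their values were seen. Ccl28 had 80, 98 and 53 counts in WT and 34, 43 and 44 in ISM1-/- (log2 fold change -0.94, edgeR adjusted p = 0.105). Ccr10 had 8, 18 and 7 counts in WT and 30, 26 and 23 in ISM1-/- (log2 fold change 1.24, edgeR adjusted p = 0.139). Neither passed, the genotypes did not overlap in either gene, and the log2 fold changes had opposite signs. Among the 16 tested genes of the list, 3 were higher in every ISM1-/- library than in every WT library and 1 was lower. In these directions 9.33% and 12.3% of all genes tested had no overlap, and 21.6% had none in either direction. Ccr10, at 0.212, 0.434 and 0.181 CPM in WT, was below the filter there and entered the test only through ISM1-/- libraries.

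Receptors for immunoglobulin and epithelial transport partners of Pigr gave 0 of 12 genes past an adjusted p under 0.1 in edgeR, in DESeq2 or in limma, with 1 higher and 2 lower at an unadjusted p under 0.05. At this unadjusted p, 6.48% of all genes tested were higher and 9.3% lower. The median log2 fold change of the 12 genes was 0.02. Myo5b and Rab11a, a motor and a small GTPase of apical recycling, had log2 fold changes of -0.02 (edgeR adjusted p = 0.948) and 0.15 (adjusted p = 0.379). Among 14 lung epithelial markers, which stand for the cells that carry Pigr, 4 passed as lower and 0 as higher. Of all genes tested, 3.34% passed as lower and 1.38% as higher. The 4 markers were the airway genes Foxj1 (-0.51, adjusted p = 0.0118), Cyp2f2 (-0.42, adjusted p = 0.0214), Scgb1a1 (-0.51, adjusted p = 0.0270) and Scgb3a2 (-0.37, adjusted p = 0.0506), with log2 fold changes first. The number was 1 without WT replicate 2 and 2 without ISM1-/- replicate 2. Sftpc, the alveolar type 2 surfactant gene, was at 12458 ± 175 CPM in WT and 12366 ± 502 CPM in ISM1-/- (SD, n = 3 each; log2 fold change -0.01, edgeR adjusted p = 0.962).

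Markers of other cells that can express genes of the set were measured beside it, and none of the plasmacytoid dendritic cell, T cell or pan-leukocyte genes was called at 2-fold. Plasmacytoid dendritic cells, which share Spib and Irf8 with B cells, had 1 of 11 markers past an adjusted p under 0.1, namely Spib, and Siglech, a defining marker, was at 4.13 ± 0.648 CPM in WT and 4.79 ± 0.354 CPM in ISM1-/- (SD, n = 3 each; edgeR adjusted p = 0.547). Of 13 T cell markers 1 passed, Cd2 (log2 fold change 0.42, edgeR adjusted p = 0.0607), and of 5 pan-leukocyte genes 1 passed, Ptprc (0.40, adjusted p = 0.0546), which encodes CD45. All 13 T cell markers and all 5 pan-leukocyte genes had positive log2 fold changes, with medians of 0.38 and 0.20. At an unadjusted p under 0.05 in edgeR, 5 and 2 of them were higher and 0 lower, beside 6.48% and 9.3% of all genes tested. Of the 11 plasmacytoid dendritic cell markers 7 were positive, with a median of 0.08. Spib, Cd2 and Ptprc passed as higher, as did 1.38% of all genes tested. Summed CPM of the pan-leukocyte genes was 642 to 709 in WT and 853, 770 and 662 in ISM1-/- replicates 1, 2 and 3. Summed CPM of the 16 B cell genes had the same order, with 535, 422 and 336, whereas Jchain was higher in replicate 3 than in replicate 2. Without ISM1-/- replicate 3, 4 T cell and 4 pan-leukocyte genes passed, and 0 of either list passed without ISM1-/- replicate 1, ISM1-/- replicate 2 or WT replicate 2. Of 10 proliferation genes 0 passed in edgeR, with 0 at an unadjusted p under 0.05 and 0 in DESeq2. Of 10 adipocyte markers 9 passed as lower (3 to 9 with a library left out), beside 3.34% of all genes tested. The median log2 fold change of the 10 markers was -1.83. Of 10 cardiomyocyte markers 1 passed as lower (0 to 3), while 9 were lower at an unadjusted p under 0.05, beside 9.3% of all genes tested. The median log2 fold change of the 10 cardiomyocyte markers was -1.01, and 9 passed without a filter on low counts. Of 7 markers of lymph node stroma and venules 3 were tested and 0 passed in edgeR or DESeq2. At an unadjusted p under 0.05, 1 was higher, beside 6.48% of all genes tested. Among the 7 markers, Glycam1 had 57 counts in ISM1-/- replicate 1 and 0 in the other 5 libraries. Without ISM1-/- replicate 1, Jchain had a log2 fold change of 1.97 (edgeR adjusted p = 0.00535) and was called. The part of lymph node tissue in the difference of Jchain was not tested.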

How the data were processed

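Whole-lung RNA of 3 WT and 3 ISM1-/- mice was selected for poly-A tails and sequenced as paired reads from directional libraries. Reads were mapped by the authors with STAR to GRCm38, and the deposited values are raw read counts per gene and FPKM, which the authors computed from the counts, library totals and gene length. The counting program, annotation release and strand setting are not given in the sources used here. The deposited table also holds gene annotation, and no column of unmapped samples was found.

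Counts were analysed in edgeR 4.0.16 (R 4.3.3) with TMM scaling and the quasi-likelihood test, without covariates, on genes with 0.5 CPM in at least 1 library. SE values are the log2 fold change over the root of the F statistic. FPKM was tested with limma 3.58.1 on log2(FPKM + 1), which understates changes of low genes. DESeq2 1.42.0 was an alternative, as were other filters, scalings, thresholds, the replicate block and each library left out. Tests of ratios were exact permutation tests over 20 assignments. On simulated counts of this comparison with 18343 genes, the changed genes were drawn from those with a mean of at least 1 CPM. At an adjusted p under 0.1 alone, without the fold minimum, edgeR recovered 92 of 100 genes changed 2-fold and 100 of 100 changed 4-fold. Of the 218 genes that passed in this way, 26 were unchanged genes.

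The members of the set and the 14 further gene lists were chosen with earlier results of these data known. Of 198 list symbols 197 matched. Named are the 10 genes, Ism1, the genes of the ratios, the 5 nearest to Jchain, and from each list those with an adjusted p under 0.1 (up to 5) and the 2 most abundant; others are identified where they appear or illustrate a marker. One B cell gene that counts in its list is not reported here. No 2 libraries agreed within sampling noise. Replicates are separate mice.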

Additional observations from a re-analysis of the deposited data

How the results depend on the processing

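The number of genes of the set that were called was 1, Jchain, under every alternative run, and its log2 fold change lay between 1.71 (limma on log2(FPKM + 1)) and 2.28. The number of all genes called was 106 and moved to 30 with limma on log2(FPKM + 1), 37 with a mean above 2 CPM, 293 without a filter, 51 at an adjusted p under 0.05, 882 without a fold minimum, and 31 to 188 with each library left out. Among the genes of the set and the ratios, directions changed only where values were near 0 and only with a library left out. Log2 fold changes then ranged from -0.0114 to 0.273 for Irf4 (-0.0114 without ISM1-/- replicate 1), from -0.0160 to 0.233 for Derl3 (-0.0160 without ISM1-/- replicate 3) and from -0.0414 to 0.0327 for Pigr (0.00265, 0.0181 and 0.0327 without ISM1-/- replicate 2, ISM1-/- replicate 3 and WT replicate 2), and the log2 difference of the ratio of Jchain to Igha from -0.19 to 0.0777 (0.0777 without WT replicate 1 and 0.0246 without ISM1-/- replicate 3). The causes were not tested. Same-numbered mice are different animals and their deviations did not go together (r -0.0405 to 0.0310), so the numbers do not pair the libraries. With the replicate number as a block, 130 genes were called, and Jchain, at a log2 fold change of 2.10, was the only one of the set. Counts of list genes that passed also moved. Immunoglobulin constant regions, 4 in the text, gave 6 with DESeq2, 8 with the block and 10 without a filter. B cell genes, 5 in the text, gave 8 with DESeq2, 12 without a filter, and 0 with limma or at an adjusted p under 0.05. Survival and homing genes, 2 in the text, gave 4 with DESeq2 or the block, 6 without a filter, 1 with library totals in place of TMM, and 0 with limma or at an adjusted p under 0.05. T cell markers, 1 in the text, gave 4 with DESeq2, 5 without a filter, and 0 with limma on log2(FPKM + 1) or at an adjusted p under 0.05. Pan-leukocyte genes, 1 in the text, gave 2 with the block or without a filter, and they and the plasmacytoid dendritic cell markers gave 0 with limma or at an adjusted p under 0.05. Other plasma cell genes, with 0 higher, gave 1 with the block, transport partners, also 0, gave 1 without a filter, and lymph node markers, also 0, gave 1 with either. As lower, cardiomyocyte markers gave 9 without a filter, and 0 with DESeq2, limma, the block, a mean above 2 CPM or an adjusted p under 0.05. Survival and homing genes and plasmacytoid dendritic cell markers, with 0 lower, each gave 1 without a filter, the former also with DESeq2 and with 0.5 CPM in 3 libraries. Epithelial markers, 4 lower in the text, gave 2 with limma on log2(FPKM + 1). With 3 mice per genotype, small changes of low genes such as Derl3 and Tnfrsf17 could not be resolved.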
